A study of Mus with 8 samples.

Results

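Adipocyte genes were examined in whole subcutaneous tumours as a set of 10: Adipoq, Lep, Plin1, Plin4, Cidec, Fabp4, Cfd, Retn, Pparg and Cd36. Members are the genes to which the RefSeq accession of at least 1 non-control array probe maps. All 10 were found, with 13 probes, among 22911 genes on the array. Tumours called Mutant grew in hosts that carried Ext1 flox/flox together with S100a4-Cre, and tumours called Control grew in wild-type hosts. Both kinds of host are labelled B6, and both received Pan02 cells, a mouse pancreatic cancer line, under the skin. Each group held 4 tumours, 1 per mouse, taken 36 to 40 days later, and RNA of each was hybridised to its own 1-colour Agilent array. Ext1 encodes a polymerase of heparan sulfate chains. The recombinase follows S100a4, which fibroblasts and other stromal cells express, so only host cells carry the floxed allele and the recombinase, and the cancer cells carry neither. The comparison asks how whole tumours differ between these hosts.

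White adipocytes store triglyceride in a large lipid droplet and release fatty acids when other tissues need fuel. The nuclear receptor PPARγ, product of Pparg, drives their differentiation and turns on genes of fatty acid uptake, droplet coating and hormone secretion. Beneath the skin adipocytes form a layer that a growing tumour can border on or enclose. Several genes of the set are active in other cells too: Cd36 and Fabp4 in capillary endothelium and macrophages, Cd36 also in skeletal muscle, and Pparg in some macrophages and epithelia.

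Levels are log2 processed signals minus the log2 of their array's 75th percentile, so a difference of 1 is 2-fold, and differences are Mutant minus Control. A probe's level is compared between tumours, not with other probes. The scanner software marked 61.5% to 67.2% of 56605 probes per array as well above background, and the dimmest such signals lay at -5.97 to -5.45. Ext1 read 3.15 ± 0.22 in Mutant and 3.07 ± 0.76 in Control tumours (SD, n = 4 each), a probe level that cannot check the deletion, since cancer cell RNA is included and the probe's place in the gene is not known here. No member's groups were separate, against 1.42% of the 16068 genes tested whose groups did not overlap. None of the 7 members bright enough to be tested was called by limma at an adjusted p under 0.05, and neither was any other gene (0.0%). Before adjustment 0 of the 7 had p under 0.05, against 2.91% of all genes.

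Adipoq, Plin1 and Cidec, genes typical of fat cells, were dim in most tumours. Adipoq was well above background in 3 tumours of 8, Cidec in the same 3 and Plin1 in 1. The Lep probe and the brighter Retn probe were well above background in all 8. The set is therefore described as adipocyte genes measured in bulk tumour. Fewer cells of a type and less RNA per cell cannot be told apart in such samples.

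Secreted products come first. Adipoq encodes adiponectin, the abundant hormone of fat cells. It was at -4.88, -1.41, -6.26 and -7.25 in Mutant 1 to 4, against -7.22, -3.21, -7.59 and -8.03 in Control 1 to 4. Only Mutant 1, Mutant 2 and Control 2 were well above background, so the groups overlapped widely and the single bright Control tumour exceeded 3 of 4 Mutant tumours. The difference of 1.56 (standard error 1.48; two-sided exact permutation p = 0.4) rests mostly on signals near background, and Adipoq was too dim to enter the test over all genes. It was 0.39 without Mutant 2, 2.66 without Control 2 and 0.35 with normexp background correction.

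Cfd encodes adipsin, the serine protease complement factor D, which mouse fat cells secrete in quantity. Its level was -0.71, 3.10, -0.92 and -3.08 in Mutant 1 to 4, against -3.46, -0.36, -4.22 and -5.03 in Control 1 to 4. Mutant 2 and Control 2 were the highest of their groups, and the other 3 Control tumours lay below every Mutant tumour. Mutant tumours averaged -0.40 ± 2.57 and Control tumours -3.27 ± 2.04 (SD, n = 4 each), a difference of 2.86 or 7.27-fold, the widest of the set. With a standard error of 1.44 this did not exceed the spread between tumours (limma adjusted p = 1; unadjusted p = 0.0835; two-sided exact permutation p = 0.143, where the smallest p that 4 against 4 tumours allow is 0.0286). Without Mutant 2 the difference was 1.69. A further Cfd probe differed by 3.02 and put the 6 tumours in which it was well above background in the same order. In Control 3 and Control 4 it was not well above background, so the size of its difference rests in part on such signals.

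Retn encodes resistin, a secreted protein that in mice comes chiefly from white adipocytes. Its brighter probe read -3.89, -1.22, -4.04 and -4.29 in Mutant 1 to 4, against -3.90, -3.94, -4.40 and -4.36 in Control 1 to 4. Mutant 2 stood alone, and the other 7 tumours lay within a narrow band in which the groups overlapped. The difference was 0.79 with a standard error of 0.65 (limma adjusted p = 1), and was 0.08 without Mutant 2, 0.40 with normexp and 0.51 with array weights. The dimmer probe, above background in 4 Mutant and 2 Control tumours, also put Mutant 2 highest, at -1.43 against -5.35 to -4.73 in the other Mutant tumours and -8.03 to -4.49 in Control tumours. It differed by 1.57, which rests in part on Control signals not well above background.

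Lep encodes leptin, the hormone that reports fat stores to the brain. Its probe read -2.01, -1.85, -1.86 and -1.85 in Mutant 1 to 4, against -1.87, -2.03, -1.94 and -1.71 in Control 1 to 4. Unlike the other secreted products it did not single out Mutant 2 or Control 2, and its whole range over the 8 tumours was 0.32, wider than that of only 5.36% of the genes tested. The difference was -0.0029 with a 95% interval of -0.25 to 0.24 (limma adjusted p = 1). Whether this nearly constant signal measures Lep transcript could not be checked without the probe's sequence, so it is not read as a stable leptin level.

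**Figure D1:**
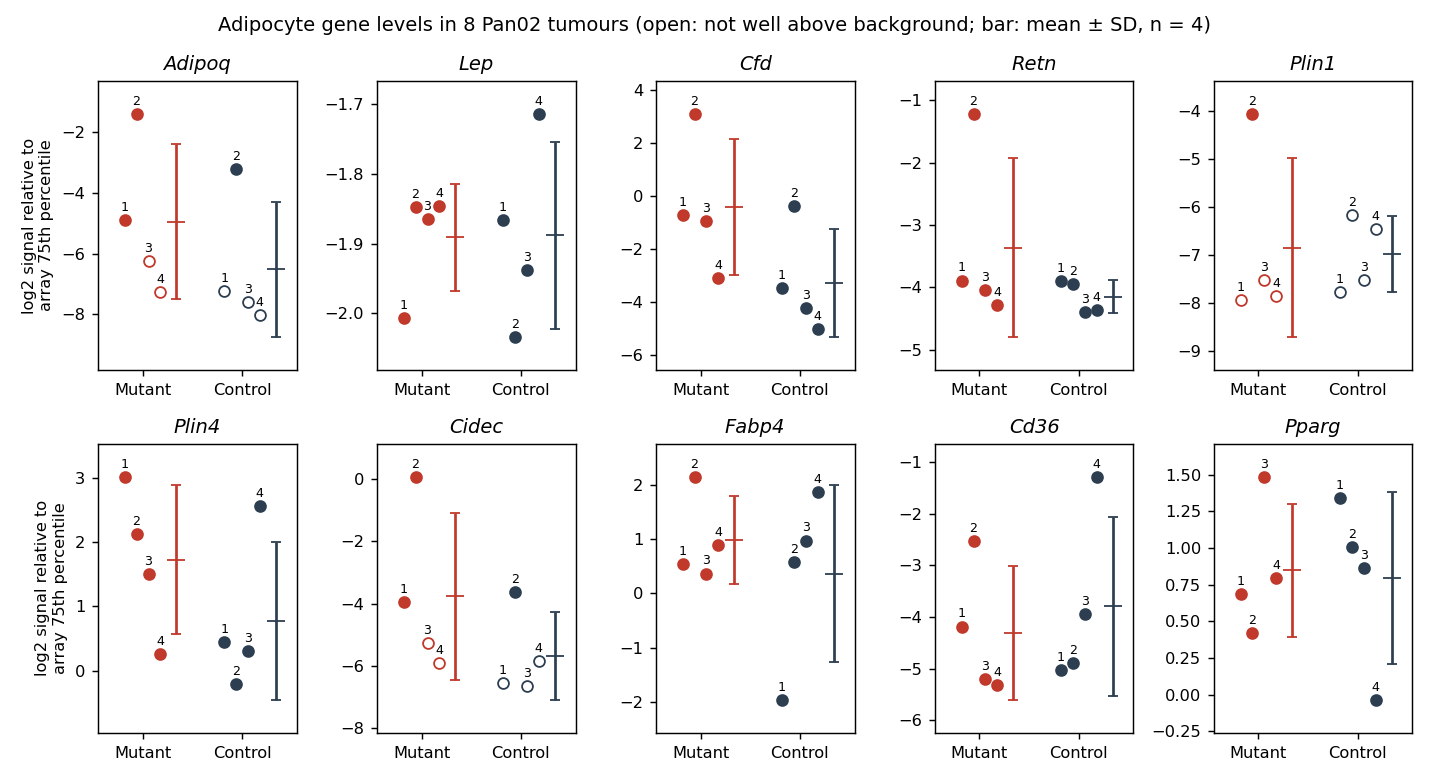
Log2 signal relative to the array's 75th percentile (vertical axis, own scale per gene) of the 10 adipocyte genes in 4 Mutant (red, left) and 4 Control (dark, right) tumours, numbered by replicate; open points are not well above background and bars are mean ± SD. Mutant 2 was the highest tumour for Adipoq, Cfd, Retn, Plin1, Cidec and Fabp4, and Control 4 for Lep and Cd36.

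Among the droplet proteins, Plin1 encodes perilipin 1, which coats the droplet of fat cells and gates lipolysis. It was at -7.93, -4.06, -7.52 and -7.84 in Mutant 1 to 4, against -7.76, -6.17, -7.51 and -6.44 in Control 1 to 4. Only Mutant 2 was well above background, so all Control values are bounds and no fold is given. The measured difference was 0.13 (standard error 0.88; two-sided exact permutation p = 0.971) and turned to -0.79 without Mutant 2, -0.13 without Control 1 and -0.05 without Control 3. It was 0.03 with normexp and 0.20 with quantile normalization.

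Cidec, known in mice as fat-specific protein 27, enlarges lipid droplets by moving lipid between them. Its levels were -3.96, 0.06, -5.27 and -5.89 in Mutant 1 to 4, against -6.56, -3.64, -6.66 and -5.83 in Control 1 to 4. As with Adipoq, only Mutant 2, Control 2 and Mutant 1 were well above background. Over the 8 tumours Cidec spanned 105-fold, with its lower end at signals not above background. The difference was 1.91 (standard error 1.32; two-sided exact permutation p = 0.257), and was 0.63 without Mutant 2 and 0.80 with normexp.

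Plin4, a perilipin found on small nascent droplets of adipocytes and in muscle, did not follow this order. It read 3.01, 2.12, 1.51 and 0.26 in Mutant 1 to 4, against 0.44, -0.21, 0.30 and 2.56 in Control 1 to 4. Mutant 1 was highest and Control 4 next, while Control 2, behind only Mutant 2 in Adipoq, was the lowest tumour. The difference was 0.95 with a standard error of 0.74 (limma adjusted p = 1), 0.52 without Mutant 1, 0.62 without Control 2, 1.44 without Mutant 4 and 1.54 without Control 4.

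Fatty acid handling is represented by Fabp4, a cytosolic fatty acid carrier, and Cd36, a membrane protein that takes up fatty acids and oxidised lipoprotein. Fabp4 was at 0.53, 2.14, 0.37 and 0.90 in Mutant 1 to 4, against -1.96, 0.58, 0.97 and 1.86 in Control 1 to 4. Mutant 2 and Control 4 were high and Control 1 low, and the difference of 0.62 (standard error 0.80; limma adjusted p = 1) was -0.15 without Control 1, 0.23 without Mutant 2, 1.12 without Control 4 and 1.61 with array weights. A further Fabp4 probe gave the same order of tumours and a difference of 0.54.

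Cd36 was at -4.18, -2.52, -5.20 and -5.32 in Mutant 1 to 4, against -5.04, -4.89, -3.94 and -1.29 in Control 1 to 4. The Cd36 probe was well above background in all 8 tumours, though dim in Mutant 3, Mutant 4, Control 1 and Control 2. Control 4, in which Cfd was lowest, had the highest Cd36, and Mutant 2 came next. The difference of -0.52 (standard error 0.95; limma adjusted p = 1) turned to 0.32 without Control 4 and 0.22 with array weights, and was -0.31 with normexp, -1.11 without Mutant 2, -0.93 without Control 1, -0.89 without Control 2, -0.22 without Mutant 3 and -0.18 without Mutant 4.

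Pparg, the transcription factor of the set, varied least after Lep. It read 0.68, 0.42, 1.48 and 0.80 in Mutant 1 to 4, against 1.34, 1.01, 0.86 and -0.03 in Control 1 to 4. Mutant 2 was the lowest Mutant tumour for Pparg although it was the highest for 6 other members. The difference was 0.05 with a 95% interval of -0.72 to 0.83 (limma adjusted p = 1), so a 2-fold difference in either direction lay outside the interval. It turned to -0.22 without Control 4, -0.16 without Mutant 3 and -0.33 with array weights.

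**Figure D2:**
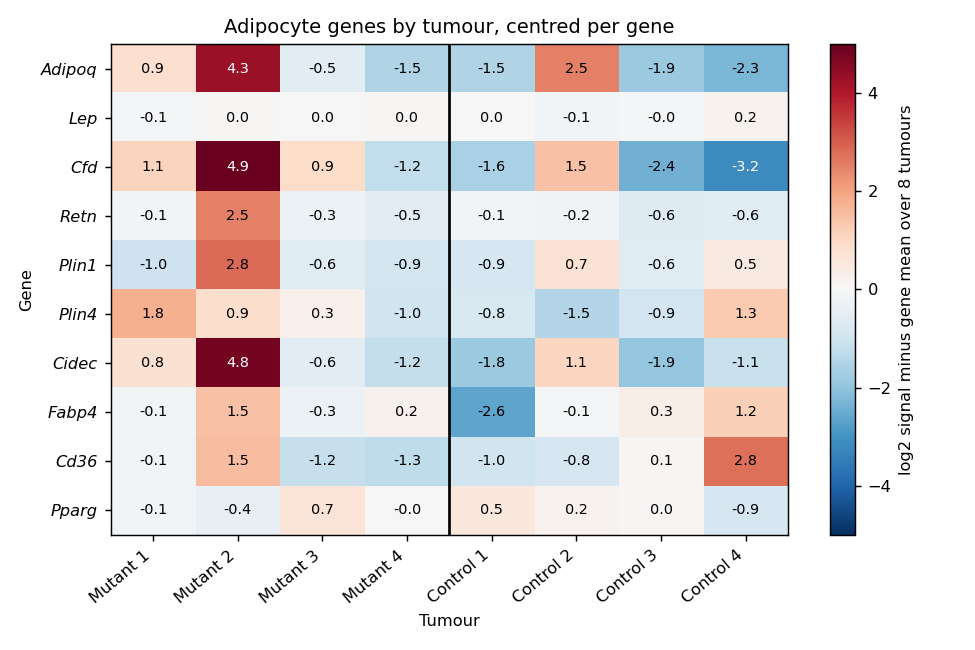
Each cell gives the log2 signal of a gene (rows) in a tumour (columns, Mutant left of Control) minus that gene's mean over the 8 tumours, in red where above and blue where below. Adipoq, Cfd and Cidec share high values in Mutant 2 and Control 2, while Cd36 is highest in Control 4 and Lep hardly varies.

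The members did not move as 1 block across tumours. Mutant 2 was the highest tumour for 3 of the 7 tested members (Cfd, Retn and Fabp4), and for 3.93% of all genes tested. It was also the highest for Adipoq, Plin1 and Cidec, the 3 untested members, and for 12.05% of the 1353 genes too dim to be tested but well above background on at least 1 array. This tumour was singled out after its values were seen. Cfd was well above background in all 8 tumours by its brighter probe, though dim in Control 3 (-4.22) and Control 4 (-5.03). Also chosen after its values were seen, Cfd was set against each of the other 9 members and against the skeletal muscle level, 10 relations in all. They are over 8 tumours on the same arrays and, since Cfd was picked for its pattern, are given as a description with no test.

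Adipoq had Pearson's r = 0.95 with Cfd and Spearman's rho = 0.98, Cidec r = 0.93 and rho = 0.86, and Retn r = 0.84 and rho = 0.79. Adipoq and Cidec were well above background in 3 of the 8 tumours, Mutant 2, Control 2 and Mutant 1, which were also the 3 highest for Cfd. The order of their other 5 values has no meaning, so their rho values carry little. Without the tumours farthest from the median of Cfd, Control 4 and Mutant 2, r was 0.87 for Adipoq, 0.93 for Cidec and 0.66 for Retn. Of the tumours kept, only Control 2 and Mutant 1 were well above background for Adipoq and Cidec. For these genes r therefore sets those tumours against signals at background.

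For the remaining members r with Cfd lay between -0.35 for Lep and 0.65 for Plin1, which was above background in Mutant 2 alone. Fabp4 had r = 0.27 and rho 0.00, and Pparg r = 0.06 and rho 0.05. The values over all 8 tumours were also near 0 for Plin4 (r = 0.22, rho -0.02) and Cd36 (r = -0.03, rho -0.12). Within the groups, r with Cfd had opposite signs in Mutant and Control tumours for each of these genes. It was 0.77 and -0.21 for Fabp4, -0.47 and 0.53 for Pparg, 0.57 and -0.73 for Plin4, and 0.94 and -0.68 for Cd36. The same held for Lep (0.08 and -0.83). Both groups had positive r for Adipoq (0.98 and 0.99), Cidec (0.97 and 0.85), Retn (0.95 and 0.71) and Plin1 (0.91 and 0.43). Of these, Adipoq, Cidec and Plin1 were at background in most tumours, so their values carry little. Among Mutant tumours Cd36 had the same order as Cfd, with Mutant 2 highest, then Mutant 1, Mutant 3 and Mutant 4. The order of Mutant 3 and Mutant 4, and of Control 1 and Control 2, rests on small differences between dim Cd36 signals. Among Control tumours the order of Cd36 was Control 4, Control 3, Control 2 and Control 1, so the tumour lowest for Cfd was highest for Cd36. Plin4 was likewise higher in Mutant 1 and Mutant 2 than in Mutant 3 and Mutant 4, while Control 4 was the highest Control tumour for Plin4 and Control 2 the lowest. With 4 tumours a group these orders were not tested.

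**Figure D3:**
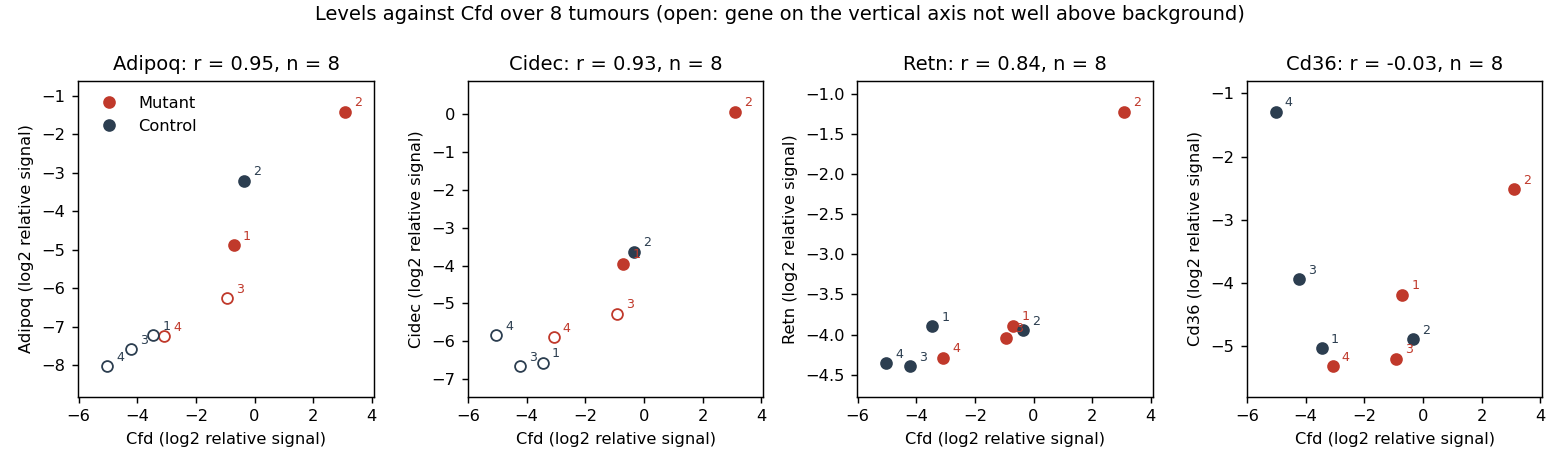
Levels of Adipoq, Cidec, Retn and Cd36 (vertical axes) against the level of Cfd (horizontal axis), all as log2 signal relative to the array's 75th percentile, with 1 point per tumour numbered by replicate, Mutant in red and Control dark. Adipoq and Cidec are highest in the 3 tumours with most Cfd and at background in the other 5, Retn stands out in Mutant 2, and Cd36 is highest where Cfd is lowest, in Control 4.

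Over the 7 members tested, 5 differences were above 0 and 2 below, with a median of 0.62, beside 52.4% above 0 and a median of 0.01 over all genes. The members' median was 0.19 without Mutant 2, 0.23 without Control 1 and 0.40 with normexp. The arrays lay in 2 rows of 1 slide, each with 2 Mutant and 2 Control tumours, and the difference within each row had the same sign for 4 members. These were Cfd (3.10 and 2.62 in rows 1 and 2), Cidec (3.15 and 0.66), Adipoq (2.07 and 1.06) and Retn (1.36 and 0.21). No tumour of row 2 was well above background for Adipoq, Cidec or Plin1, so their signs there carry little. The share of all genes with the same sign in both rows is not given. Signs were opposite between rows for Plin4 (2.44 and -0.54), Fabp4 (2.02 and -0.78), Cd36 (1.61 and -2.65), Plin1 (0.96 and -0.70), Pparg (-0.62 and 0.73) and Lep (0.02 and -0.03). With the row as a block no member was called.

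**Figure D4:**
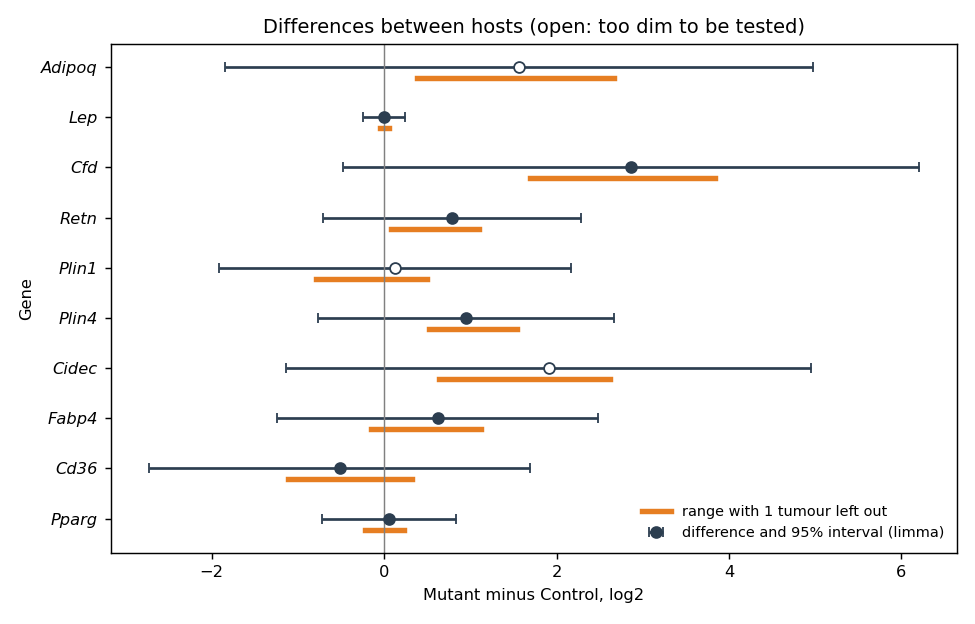
Mutant minus Control difference of each member on the log2 scale (horizontal axis), with its 95% interval from limma as thin bars and, in orange, the range of the difference when any 1 tumour is left out; open points are genes too dim to be tested over all genes. Every 95% interval includes 0, and Lep and Pparg have the narrowest.

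Markers of other cell types varied over the same tumours. All 16 skeletal muscle genes were above 0, with a median difference of 2.80, 11 of them with an unadjusted limma p under 0.05, against 1.87% of all genes in that direction, and none called. The 16 genes ranked the tumours much alike, so these counts are not of independent genes. The muscle level, the mean of the genes after centring each on its mean over the tumours, was 1.87, 2.78, -0.78 and 1.49 in Mutant 1 to 4, against -0.60, 0.36, -1.83 and -3.28 in Control 1 to 4. Mutant 2 and Control 2 were the highest of their groups for muscle as for Adipoq, Cidec and Cfd, and Mutant 2 was the highest tumour for all 16 muscle genes. The muscle level had r = 0.79 with Cfd and rho = 0.83. Without Control 4 and Mutant 2 its r was 0.47, so the relation rests in part on those tumours. Within the groups its r with Cfd was 0.48 in Mutant and 0.90 in Control tumours. Mutant 4, with a muscle level of 1.49, had Adipoq and Cidec at background. The part of muscle in the members' differences was not tested.

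Control 4, highest in Cd36, was also the tumour with the highest fibroblast level. The fibroblast level ranged from -1.26 to 1.21 in Mutant tumours and from -1.31 to 2.53 in Control tumours, where 2.53 was Control 4 and the other 3 were at most -0.47. Of 11 fibroblast genes tested 9 were highest in Control 4, as were 22.4% of all genes tested, while Tcf21 was not above background on any array. Macrophage and monocyte genes, all 12 measured, ranged from -0.53 to 0.39 in Mutant and from -0.75 to 0.79 in Control tumours, again with Control 4 highest. Endothelial genes, all 12 measured, ranged from -0.21 to 0.47 in Mutant and from -0.43 to 0.53 in Control tumours, with Control 2 highest. Skin epithelium and sebaceous genes, 9 of 13 tested, ranged from -0.39 to 1.15 in Mutant and from -0.37 to -0.06 in Control tumours, and Krt1, Dsg3 and Awat1 were not above background on any array. Differences were above 0 for 6 of 11 fibroblast, 10 of 12 macrophage, 11 of 12 endothelial and 6 of 9 skin genes tested, beside 52.4% of all genes. Their medians were 0.10, 0.10, 0.22 and 0.20, and none was called. How far these cell types bear on Cd36, Fabp4 or Pparg was not tested.

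Genes around the set were taken from 6 lists, of 127 genes in all, and 114 were bright enough to be tested. None was called (limma, adjusted p = 1 for each gene named below). At an unadjusted p under 0.05 there were 9, or 7.89%, beside 2.91% of all genes. Differences were above 0 for 61 and below 0 for 53, with a median of 0.05.

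Of 19 lipid droplet and lipolysis genes tested, 8 were above 0 and 11 below, with a median of -0.13. G0s2, an inhibitor of adipose triglyceride lipase, was at -4.85, -3.42, -3.94 and -4.32 in Mutant 1 to 4, against -1.44, -2.97, -3.53 and -2.50 in Control 1 to 4. Its difference was -1.52 (standard error 0.48), and Mutant 2 lay just above Control 3. Hilpda, a hypoxia-inducible inhibitor of the same lipase, averaged 1.28 ± 0.38 in Mutant and 1.99 ± 0.59 in Control tumours (SD, n = 4 each). Cidea, a relative of Cidec typical of brown fat, differed by 0.88 with 1 Control array above background, and the perilipin Plin5 by 0.69 with 3 Mutant and 2 Control arrays above background. The lipase Lipe, also called hormone-sensitive lipase, differed by -0.14, and Pnpla2, which encodes adipose triglyceride lipase, by 0.07, both chosen after their values were seen.

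In fatty acid and triglyceride synthesis and glucose uptake, 13 of 22 genes were above 0 and 9 below, with a median of 0.05. Slc2a4, the insulin-responsive glucose transporter GLUT4 of fat and muscle, was at -2.64, -1.35, -2.95 and -2.77 in Mutant 1 to 4, against -3.97, -3.54, -4.94 and -2.54 in Control 1 to 4. Control 4 lay above 3 of 4 Mutant tumours, and the difference was 1.32 (standard error 0.55). Pdk4, a kinase that restrains glucose oxidation in fasted muscle and fat, differed by 2.68 (standard error 0.96), with Mutant 2 highest and Control 3 not well above background. Both genes are expressed in skeletal muscle, whose level is given above. Acsl1, which activates fatty acids, differed by 0.18 and Acacb, an acetyl-CoA carboxylase, by -0.28. Fasn, the fatty acid synthase, chosen after its values were seen, averaged 5.15 ± 0.07 in Mutant and 4.97 ± 0.37 in Control tumours (SD, n = 4 each).

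Adipogenic transcription factors and cofactors were above 0 in 14 of 24 genes and below in 10, with a median of 0.10. Ncoa2, a nuclear receptor coactivator, averaged 1.32 ± 0.08 in Mutant and 0.94 ± 0.23 in Control tumours (SD, n = 4 each), with Control 2 inside the Mutant range. Klf15, a Krüppel-like factor of fat and muscle, differed by 1.42, Zfp467 by 0.33 and Stat5a, which acts downstream of growth hormone and prolactin, by -0.30. Cebpa, the partner of Pparg in adipocyte differentiation, differed by 0.17, a gene chosen after its values were seen.

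Adipokines, receptors and adipocyte-enriched genes were above 0 in 13 of 21 genes and below in 8, with a median of 0.12. Their level was 0.24, 1.07, -0.19 and -0.25 in Mutant 1 to 4, against -0.52, -0.27, -0.44 and 0.35 in Control 1 to 4, so Mutant 2 and Control 4 led their groups. Of the 25 genes above background on at least 1 array, 15 were highest in 1 of these 2 tumours, which were named from this list's own level. Mutant 2 was highest for 3.93% and Control 4 for 22.4% of all genes tested. Over the 1353 genes too dim to be tested but above background on at least 1 array, the shares were 12.05% and 44.1%. Cyp2e1, a cytochrome P450 of liver and fat, was at 1.09, 1.27, -4.16 and 0.12 in Mutant 1 to 4, against -4.27, -6.30, -1.59 and -3.87 in Control 1 to 4. All Mutant tumours but Mutant 3 lay above every Control tumour, with a difference of 3.59 (standard error 1.40) that includes a Control 2 signal not well above background. Car3, a carbonic anhydrase abundant in fat and slow muscle, differed by 3.05 (standard error 1.41) with 3 Control arrays above background, Sncg, a synuclein, by 1.51 and Cmklr1, the receptor of chemerin, by 0.42. Adipor1 and Adipor2, the adiponectin receptors, differed by 0.02 and -0.14, and Lepr, the leptin receptor, by -0.10, all chosen after their values were seen.

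Brown and beige adipocyte genes were above 0 in 8 of 14 and below in 6, with a median of 0.16. Ucp1, the uncoupling protein that defines brown fat, stayed at background in all 8 tumours. Ppargc1a, a coactivator of PPARγ and of mitochondrial biogenesis, was at -1.46, -2.21, -2.62 and -0.55 in Mutant 1 to 4, against -3.39, -3.53, -3.60 and -3.68 in Control 1 to 4. It was the only gene of the 6 lists whose groups did not overlap, 1 of 114 genes beside 1.42% of all genes. The difference was 1.84 (standard error 0.41, two-sided exact permutation p = 0.0286). That p is the smallest that 4 against 4 tumours allow, and separate groups always give it. Cox8b, a cytochrome oxidase subunit of muscle and brown fat, differed by 3.13 (standard error 1.23) with 3 Control arrays above background, Dio2, which activates thyroid hormone, by 1.86 and Tmem26, a beige fat marker, by -1.40 with 1 Mutant array above background. Ppargc1a and Cox8b are expressed in skeletal muscle too.

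Genes of adipocyte progenitors were above 0 in 5 of 14 and below in 9, with a median of -0.05. Pi16, which marks fibroblast-like progenitors beneath the skin, was at 3.46, 2.53, 1.64 and 1.57 in Mutant 1 to 4, against 5.28, 3.05, 3.20 and 5.43 in Control 1 to 4. Mutant 1 lay above 2 Control tumours, and the difference was -1.94 (standard error 0.69). Ly6a, the stem cell antigen Sca-1, differed by 1.11, the tetraspanin Cd9 by -0.16 and Wnt2, a Wnt ligand, by -1.71 with a standard error of 1.71. Of the 14 genes 8 were highest in Control 4, the tumour with the highest fibroblast level, beside 22.4% of all genes tested.

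**Figure D5:**
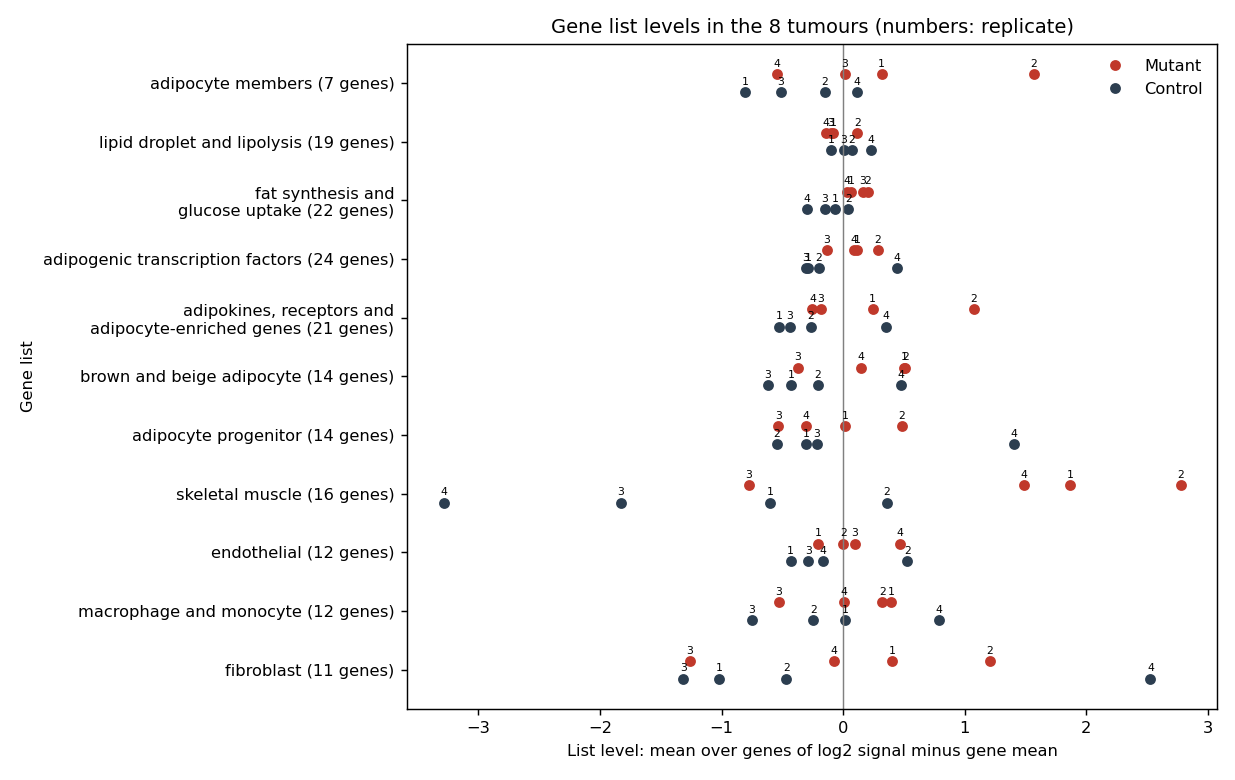
Level of each gene list (rows) in the 4 Mutant (red, upper points) and 4 Control (dark, lower points) tumours, as the mean over tested genes of log2 signal after subtraction of each gene's mean over the 8 tumours (horizontal axis), numbered by replicate. The skin epithelium and sebaceous gland list is not shown. Skeletal muscle spans the widest range, from -3.28 in Control 4 to 2.78 in Mutant 2, and fibroblast and progenitor lists set Control 4 apart.

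Further adipocyte genes lay below the brightness needed for testing, as Adipoq, Plin1 and Cidec did. Of the 13 such genes in the 6 lists, 11 were above background on at least 1 array, and 7 of these were highest in Mutant 2 and 4 in Control 4. Over all 1353 such dim genes the shares were 12.05% and 44.1%. Pck1, whose enzyme supplies glycerol for triglyceride in fat, was above background in Mutant 2 alone, at -3.97 against -7.58 to -6.39 in the other Mutant tumours and -8.23 to -7.47 in Control tumours. Thrsp, a lipogenic factor, was at -3.04 in Mutant 2 and -7.48 to -5.78 in the other Mutant tumours, against -5.28 in Control 4 and -8.25 to -7.39 in the other Control tumours. These genes were chosen after their values were seen.

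Outside the members, the genes whose pattern was most like the member level were ranked by Pearson's r over the 8 tumours. The member level, the mean of the 7 tested members after centring, was 0.32, 1.57, 0.02 and -0.54 in Mutant 1 to 4, against -0.81, -0.15, -0.51 and 0.11 in Control 1 to 4. Ica1l (r = 0.92), Dpy19l4 (0.90), the major urinary protein Mup19 (0.90), the collagen chain Col11a1 (0.90), Stmn2 (0.89), the thromboxane receptor Tbxa2r (0.88) and Sirpb1b (0.88) ranked highest, with 1 predicted model among the 8. Mutant 2 was the highest tumour for all 7 named genes. The ranking itself favours this, since the member level was highest in Mutant 2. These values describe 8 points on shared arrays and are the top of 16068 genes ranked.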

How the data were processed

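Total RNA of 8 whole tumours was extracted and, per the labels' protocols, 0.5 ug of each was amplified and labelled with Cy3. Per the file headers, spot intensity was read with Agilent Feature Extraction 10.7.3.1 (version 9.1 is the one per the submitters' processing notes). The processed intensity was, per the file headers, background-subtracted and detrended within the array and deposited without between-array scaling. The flag columns deposited beside it carry no unit (other). The authors' deposited value table equals it within 0.01% for 99.5% of probes.

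Outlier spots (66 to 117 per array) and control spots were dropped and replicate spots averaged per probe. From each log2 signal the log2 of the array's 75th percentile was subtracted. Accessions matched 1 gene of assembly GRCm38.p6 for 32994 of 56605 probes (58.3%), several for 0 and none for 23611. The array design names another build, so no coordinates are given, and no sequence is printed. A probe entered the test if 4 or more of 8 arrays had it well above background, and the brightest probe represented its gene. The test was limma 3.58.1 (R 4.3.3) over 16068 genes with Benjamini-Hochberg adjustment, and single values by exact permutation over 70 arrangements. Python 3.11.15 with pandas 2.3.3 joined the tables, and the fit was tested on simulated data. Arrays give no count depth, and the number of tumours limits precision.

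Members and lists were chosen with earlier results of these data known. All 10 members are named, in each of the 6 wider lists the 4 genes of smallest unadjusted p, and, of the 8 genes most like the member level, all but 1 predicted model. The plan left the normexp columns open, and median spot and background signals were used. Alternatives covered background correction, scaling, filters, probes, the deposited table, variance model, array weights, the replicate number and slide row as blocks, and each tumour left out.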

Additional observations from a re-analysis of the deposited data

Results flagged for a closer look

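Single tumours stood apart from the other 3 of their group in 7 of 49 sets of 4 values checked by Dixon's ratio, where chance flags about 1 in 20. Mutant 2 did so for Retn by both probes, at -1.22 and -1.43, and for Plin1, at -4.06. Control 2 stood apart for Adipoq, at -3.21, and Mutant 1 was low for Lep, at -2.01, within a very narrow range. Control 4 was high in the level of adipogenic transcription factors, at 0.44, and of adipocyte progenitor genes, at 1.40. The sets share the same tumours and Retn enters by both probes, so they are not independent and 1 in 20 is only a rough guide. For Plin1 and Adipoq the other 3 values were not well above background.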

How the results depend on the processing

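Under 20 alternative settings limma called 0 of all genes and 0 of the 7 tested members, while the number of genes at an unadjusted p under 0.05 ranged from 195 without Mutant 1 to 1475 with array weights. The members' median difference was 0.40 to 0.70 under 12 settings that kept all tumours and 0.19 to 0.83 with 1 tumour left out. The 0.70 came without the filter on dim probes and is over all 10 members. The other settings that kept all tumours gave at most 0.62 over the 7 tested members. Of 143 values of tested members under the alternatives, 46 equal the reported difference, since variance models, blocks and filters leave it as it is. Of the other 97, 87 kept their sign and 10 did not. With array weights the sign turned for Lep (0.0082), Pparg (-0.33) and Cd36 (0.22). With 1 tumour left out the differences ranged from -0.051 to 0.055 for Lep, from -0.15 to 1.12 for Fabp4, from -0.22 to 0.23 for Pparg, from -1.11 to 0.32 for Cd36 and from -0.79 to 0.49 for Plin1. Normexp with an offset of 50 gave smaller differences for Cfd (2.00), Adipoq (0.35), Cidec (0.80), Retn (0.40), Cd36 (-0.31) and Plin1 (0.03). Of the tested members, Cfd, Retn and Plin4 kept their sign under every setting run. Adipoq and Cidec, too dim to be tested, also did so under the 12 settings run for them. The cause of these shifts was not tested.

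Same-numbered tumours did not deviate together, with correlations of their deviations from the group means of 0.08, -0.31, 0.05 and -0.31 for numbers 1 to 4. With the replicate block 0 genes were called, 371 were at an unadjusted p under 0.05 in place of 467, and the members' median was 0.62. Signal over background limits Adipoq, Cidec and Plin1, whose differences rest on few bright tumours.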
